A study of Mus musculus with 6 samples.

Results

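The interferon regulatory factors (IRFs) are transcription factors that share a DNA-binding domain and read GAAA-rich sites, and the 8 members described here (Irf1, Irf2, Irf3, Irf4, Irf5, Irf7, Irf8 and Irf9) were taken by gene symbol from a table of 47069 genes. All 8 were expressed highly enough to be tested, among 17037 genes kept by the filter on low counts. The samples were whole lungs of adult mice collected at Zeitgeber time 10 (ZT10), late in the light phase of a 12 h light and 12 h dark cycle, with 1 RNA-seq library per mouse. The control group held 3 C57BL/6J mice (WT4, WT5 and WT6), and the other group held 3 mice of the strain B6.129S7-Zpbp2tmZuk/Mmjax on the C57BL/6J background (KO4, KO5 and KO6), which lack exons 1 to 3 of Zpbp2. According to the study's methods WT mice were bred in the same colony as KO mice, and the labels do not say whether they were littermates. The comparison asked which IRF genes differed in the lung when the 5′ part of Zpbp2, with parts of its promoter and enhancer regions, was missing.

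IRFs link the sensing of microbes to the interferon response and also set the identity of blood cells. IRF3 and IRF7 are phosphorylated downstream of nucleic acid sensors and switch on the interferon genes, and IRF5 acts below Toll-like receptors on inflammatory cytokine genes. IRF9 joins STAT proteins below the interferon receptor to form the factor that drives interferon-stimulated genes, IRF1 activates many of the same genes, and IRF2 competes with IRF1. IRF4 and IRF8 bind poorly alone and pair with partners such as PU.1 (Spi1) and BATF, and they are best known in B cells, plasma cells, monocytes and dendritic cells. In the lung these factors are found in resident and passing leukocytes as well as in structural cells.

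Total counts lay between 19981428 and 46796908 per mouse, and KO5 was the deepest library. At these depths 3 counts correspond to between 0.0629 and 0.148 CPM (counts scaled to a common library size), a floor that covers counting error only. The targeted gene Zpbp2 had 1 count in WT4, 2 in WT5 and 2 in WT6, and 0 in each KO mouse, so its loss was not measurable in lung. The lung markers were high in all 6 mice, with Sftpc, of type 2 alveolar cells, at 9327 to 13760 CPM. The labels do not give the sex of the mice. Xist lay between 715 and 993.7 CPM in all 6. The Y-linked genes had counts almost only in KO5 (9 for Ddx3y, 7 for Kdm5d, 6 for Uty and 2 for Eif2s3y), with 1 count of Uty in WT5 and 0 elsewhere. High Xist with almost no Y-linked counts is the pattern of female mice, and it was seen in both groups. Over all genes tested, 1089 (6.39%) had an adjusted p ≤0.05, which is the rule for a change in the text below, and 3.72% were higher and 2.67% lower in KO mice (quasi-likelihood F test in edgeR, Benjamini-Hochberg adjusted over these genes, the source of each adjusted p below unless DESeq2 is named). Such p-values weigh the difference between the groups against the spread between these mice. Only 1 gene passed without WT5.

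Of the 8 members, 3 rose in KO mice (Irf4, Irf5 and Irf7) and none fell, against a background of 3.72% of genes higher and 2.67% lower. No member was lower at an unadjusted p under 0.05 or in DESeq2. In 5 of the 8 (Irf4, Irf5, Irf7, Irf8 and Irf2) every KO mouse lay above every WT mouse, where 17.0% of all genes tested did so, and in 0 of 8 did every KO mouse lie below every WT mouse, where 15.6% did. The other 3 members, Irf1, Irf3 and Irf9, had overlapping groups and log2 fold changes between -0.02 and 0.05. The median log2 fold change of the 8 was 0.43, beside 0.003 over all genes tested. The number that passed rests on single mice. It was 0 of 8 without WT5, WT6 or KO6, 2 without WT4, 3 without KO5 and 4 without KO4. Calls over all genes tested moved in the same fits, from 1089 to 1 (without WT5), 63 (WT6), 117 (KO6), 254 (WT4), 933 (KO5) and 1278 (KO4). In each fit with 0 of 8, 5 of 8 had an unadjusted p under 0.05. The share of all genes tested under that rule was not computed, so counts by unadjusted p, here and below, have no background.

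Sequences upstream of 5 members are shown: the 3 genes that rose, Irf8, which was higher in every KO mouse without passing, and Irf1, the most abundant member, which did not differ beyond its spread. Each run is the 250 bases before a start site in RefSeq (GRCm38.p6, read 5′ to 3′ on the gene's strand), and the first listed start is used for Irf1 and Irf8, which have more than 1. Capitals mark matches to the gamma-activated site (GAS, letters TTCNNNGAA), to which dimers of STAT factors bind.
Irf4 (plus strand, chr13:30748983-30749232): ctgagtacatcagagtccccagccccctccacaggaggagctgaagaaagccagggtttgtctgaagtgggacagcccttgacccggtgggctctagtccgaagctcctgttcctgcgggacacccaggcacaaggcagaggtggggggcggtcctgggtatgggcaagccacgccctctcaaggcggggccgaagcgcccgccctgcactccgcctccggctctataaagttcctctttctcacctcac
Irf5 (plus strand, chr6:29526375-29526624): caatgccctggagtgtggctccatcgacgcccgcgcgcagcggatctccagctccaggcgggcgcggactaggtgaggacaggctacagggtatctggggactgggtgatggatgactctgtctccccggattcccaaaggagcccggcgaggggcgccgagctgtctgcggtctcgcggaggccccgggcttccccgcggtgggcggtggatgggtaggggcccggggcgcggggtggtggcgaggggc
Irf7 (minus strand, chr7:141266425-141266674): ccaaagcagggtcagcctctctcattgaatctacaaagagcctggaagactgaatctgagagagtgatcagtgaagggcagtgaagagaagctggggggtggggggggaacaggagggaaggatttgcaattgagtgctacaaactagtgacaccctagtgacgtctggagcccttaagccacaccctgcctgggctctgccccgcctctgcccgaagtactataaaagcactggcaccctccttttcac
Irf8 (plus strand, chr8:120736108-120736357): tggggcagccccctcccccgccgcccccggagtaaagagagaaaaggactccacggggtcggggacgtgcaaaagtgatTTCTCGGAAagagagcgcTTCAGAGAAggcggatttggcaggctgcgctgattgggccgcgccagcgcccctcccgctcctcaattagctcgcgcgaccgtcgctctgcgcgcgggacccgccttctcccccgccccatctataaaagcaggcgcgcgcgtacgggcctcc
Irf1 (plus strand, chr11:53769764-53770013): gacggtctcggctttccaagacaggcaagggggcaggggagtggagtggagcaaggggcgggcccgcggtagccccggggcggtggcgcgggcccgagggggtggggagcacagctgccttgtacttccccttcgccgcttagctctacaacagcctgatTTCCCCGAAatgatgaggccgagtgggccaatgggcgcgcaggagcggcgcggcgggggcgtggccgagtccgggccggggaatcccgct

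All 8 members matched the promoter table, with 11 windows of 300 bases (250 before and 50 after a start). Searched on both strands, the GAS letters were in windows of 3 members, Irf1, Irf2 and Irf8, and Irf8 held 2 matches. The interferon-stimulated response element (ISRE, GAAA and GAAA with 2 bases of any kind between) was in the window of Irf2 alone, as GAAAATGAAA, where it overlaps the 1 match to GGAA and GAAA with 2 bases of any kind between, the composite site of an ETS factor and an IRF. Among all 32851 windows in the table, 8.3% held the GAS letters, 3.44% the ISRE letters and 2.72% the composite letters. The other 5 members, Irf4, Irf5 and Irf7, which rose, and Irf3 and Irf9, which did not pass the test, had no match in their windows. The motifs thus do not separate the genes that rose from the rest, and no match says only that these letters are not in these bases.

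Irf4 (ENSMUSG00000021356, chromosome 13 from 30749226 to 30766976, plus strand) is needed for plasma cell formation and for alternative activation of macrophages. It measured 8.25, 7.62 and 10.4 CPM in WT4, WT5 and WT6 and 18.5, 31.5 and 26.5 CPM in KO4, KO5 and KO6. The lowest KO mouse was above the highest WT mouse, and the KO mice differed more among themselves (25.5 ± 6.58 CPM, SD, n = 3) than the WT mice (8.75 ± 1.45 CPM, SD, n = 3). This was a 2.91-fold rise with a 95% interval of 2.07 to 4.1, or 1.54 ± 0.21 (standard error) on the log2 scale (adjusted p = 0.0176). Irf4 was the only member past the study's fold threshold of 1.5 on the log2 scale as well, a combination met upward by 0.575% of all genes tested and downward by 0.0646%. Left-out mice moved the log2 fold change between 1.35 (without KO5) and 1.72 (without KO4), and the adjusted p was above 0.05 without WT4 (0.0561), WT5 (0.0994), WT6 (0.0619) or KO6 (0.0597) in edgeR's test.

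Irf8 (ENSMUSG00000041515, chromosome 8 from 120736358 to 120756694, plus strand), the nearest relative of Irf4 in role, directs monocytes and type 1 dendritic cells and is also expressed in B cells. Its WT values were tight at 52.4, 54.2 and 53.4 CPM, and its KO values were spread at 62, 112.3 and 78 CPM in KO4, KO5 and KO6. All 3 KO mice lay above all WT mice, and KO5 stood far above KO4. The difference of 0.66 on the log2 scale (95% interval 0.21 to 1.12) did not pass the test, with an adjusted p of 0.0888. It was 0.39 without KO5 (adjusted p = 0.0626) and 0.84 without KO4 (adjusted p = 0.0306), the only left-out mouse with which Irf8 passed. DESeq2 also called it, with an adjusted p of 0.00438.

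Irf5 (ENSMUSG00000029771, chromosome 6 from 29526625 to 29541871, plus strand) drives inflammatory cytokine genes in macrophages, dendritic cells and B cells. It measured 22.1, 19.1 and 18.9 CPM in the WT mice and 31.6, 45 and 37.8 CPM in KO4, KO5 and KO6, so the groups were apart in every mouse. The rise was 1.91-fold (95% interval 1.53 to 2.39), or 0.94 ± 0.136 (standard error) on the log2 scale (adjusted p = 0.0189). With each mouse left out the log2 fold change stayed between 0.79 and 1.05, and the adjusted p was above 0.05 without WT5 (0.106), WT6 (0.0747) or KO6 (0.0633). Exons of Irf5 share 411 bp (14.1% of its exon bases) with Tnpo3 on the opposite strand. The kit marked strand, but how the counting used it is not stated, and Tnpo3 had a log2 fold change of -0.13 (adjusted p = 0.179).

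Irf7 (ENSMUSG00000025498, chromosome 7 from 141262706 to 141266481, minus strand), the factor that amplifies interferon production and is itself induced by interferon, measured 23, 20.7 and 18.1 CPM in WT4, WT5 and WT6. In KO4, KO5 and KO6 it measured 31.3, 35.5 and 36.4 CPM. Unlike Irf8, it was close to equal in KO5 and KO6, and the KO mean was 34.4 ± 2.73 CPM (SD, n = 3) beside 20.6 ± 2.49 CPM (SD, n = 3) in WT mice. This was a 1.67-fold rise (95% interval 1.41 to 1.99) or 0.74 ± 0.105 (standard error) on the log2 scale (adjusted p = 0.0184). The range with a mouse left out was 0.65 to 0.83, and the adjusted p was above 0.05 without WT5 (0.102), WT6 (0.0637) or KO6 (0.0633).

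**Figure D1:**
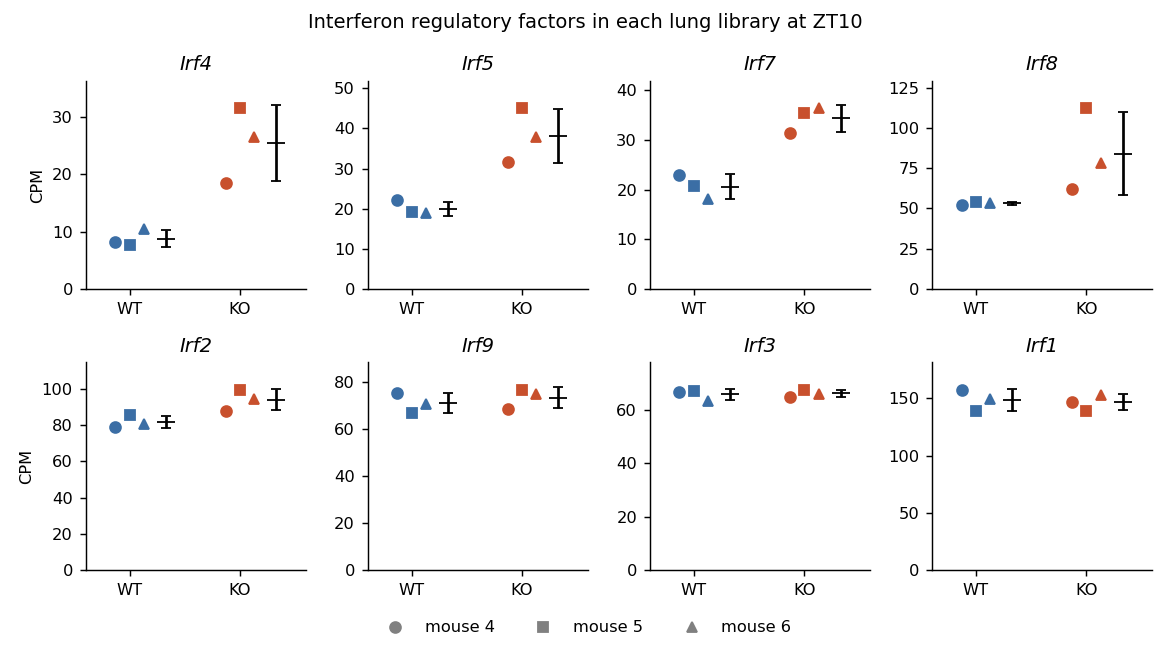
Each panel plots the normalised level (CPM, linear axis from 0) of 1 member in 3 WT (blue) and 3 KO (red) lungs, with the mouse number given by the symbol and the mean ± SD as a black bar. Irf4, Irf5 and Irf7 show KO mice apart from WT mice, Irf8 shows KO5 at 112.3 CPM above the rest, and Irf9, Irf3 and Irf1 show groups that overlap.

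Irf3 (ENSMUSG00000003184, chromosome 7 from 44997648 to 45002848, plus strand), the partner of Irf7 that is present before infection, did not follow it. Its 6 values lay between 63.4 and 67.6 CPM with the groups mixed. The log2 fold change was 0.01 with a 95% interval of -0.10 to 0.12, so that a change beyond 1.09-fold upward or below 0.933 of the WT level lay outside the interval (adjusted p = 0.93). Its exons share 88 bp with Bcl2l12 on the opposite strand.

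Irf9 (ENSMUSG00000002325, chromosome 14 from 55603571 to 55610030, plus strand), the DNA-binding part of the interferon-activated STAT complex, ranged from 66.9 to 75.6 CPM in WT mice and from 68.5 to 76.9 CPM in KO mice. The log2 fold change was 0.05 (95% interval -0.11 to 0.21, adjusted p = 0.696). Its overlap with Rnf31 on the same strand covers 123 bp, which strand cannot resolve.

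Irf1 (ENSMUSG00000018899, chromosome 11 from 53770014 to 53778374, plus strand) is the only member on the chromosome of Zpbp2, 44.8 Mb away. It ranged from 139.2 to 157.7 CPM in WT mice and from 139.4 to 153.3 CPM in KO mice. The log2 fold change was -0.02 with a 95% interval of -0.17 to 0.13 (adjusted p = 0.877).

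Irf2 (ENSMUSG00000031627, chromosome 8 from 46739732 to 46847458, plus strand), a repressor that occupies the sites of IRF1, measured 78.8, 85.6 and 80.7 CPM in the WT mice and 87.9, 99.5 and 94.3 CPM in KO4, KO5 and KO6. The groups did not overlap, though KO4 was only just above WT5. The log2 fold change was 0.20 (95% interval 0.06 to 0.35), and it did not pass the test (adjusted p = 0.0973, and 0.0724 in DESeq2). Exact two-sided permutation tests on log2 CPM gave p = 0.1, the smallest that 3 mice against 3 allow, for Irf2, Irf4, Irf5, Irf7 and Irf8, and between 0.6 and 0.8 for Irf1, Irf3 and Irf9.

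**Figure D2:**
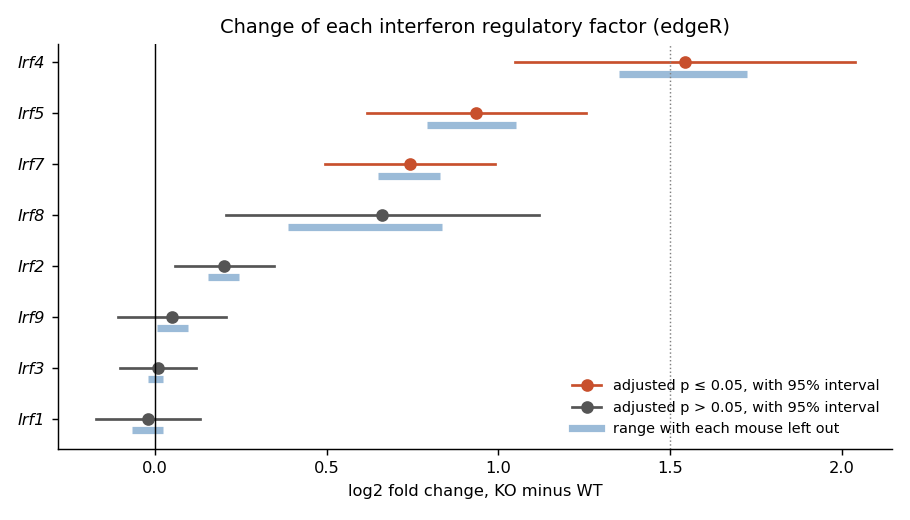
Points give the log2 fold change (KO minus WT) of each gene with its 95% interval from edgeR, red where the adjusted p was ≤0.05, and pale bars give the range when each mouse was left out. The dotted line marks the fold threshold of 1.5, which Irf4 alone passes at 1.54, and the intervals of Irf9, Irf3 and Irf1 span 0.

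To compare the members with each other, CPM was divided by the length of the longest principal transcript of each gene, giving RPKM (CPM per kilobase). In WT mice Irf1 was the most abundant, with a level of 69.6 ± 4.33 RPKM (SD, n = 3). Irf2 at 32.7 and Irf3 at 32.4 RPKM followed with overlapping values, then Irf9 at 28.9, Irf8 at 18.7 and Irf7 at 10.8 RPKM. Irf5 at 8.92 RPKM overlapped with its neighbour Irf7, and Irf4 was lowest at 1.84 ± 0.304 RPKM (SD, n = 3). Thus the members that rose, Irf4, Irf5 and Irf7, were the 3 lowest of the 8 in WT lungs. In KO mice the order of means was the same, but Irf8, with levels of 21.8 to 39.5 RPKM, now overlapped with Irf9 (27.9 to 31.3 RPKM). Irf4 made up 0.801% to 1.09% of the summed RPKM of the 8 members in WT mice and 1.76% to 2.6% in KO mice, while Irf1 made up 32.6% to 35% and 25.7% to 31.3%. Levels per length depend on the transcript chosen. With the union of all annotated exons in place of that transcript, Irf3 came before Irf9 and Irf2 in WT mice, with means of 19.1, 13.2 and 11 RPKM, and Irf5 before Irf7, at 6.88 and 5.45 RPKM.

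**Figure D3:**
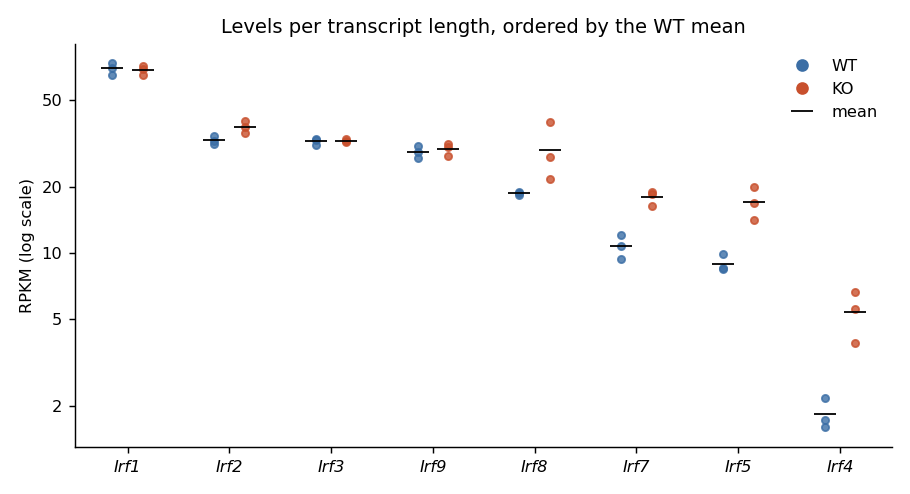
Levels per transcript length (RPKM, log axis) of the 8 members in 3 WT (blue) and 3 KO (red) lungs, ordered by the WT mean, with black bars at the group means. Irf1 stands highest near 70 in both groups, and Irf4 stands lowest, at 1.6 to 2.18 in WT and 3.88 to 6.62 in KO mice.

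Across the 6 mice, Irf4, Irf5, Irf7, Irf8 and Irf2 varied together. The Pearson correlation of log2 CPM was 0.965 between Irf4 and Irf5, 0.969 between Irf5 and Irf7 and 0.937 between Irf2 and Irf8 (n = 6 libraries, which share the genotype difference and the depth of each library). The lowest value among these 5 was 0.807, between Irf7 and Irf8. With the same 5, Irf1 was at -0.489 to -0.054, Irf3 at 0.14 to 0.441 and Irf9 at 0.364 to 0.603. Irf1 and Irf3 were at -0.315 with each other. The tested genes most like Irf4 in this measure were Tnfsf8, Xlr and Cyfip2 (r between 0.995 and 0.997), those most like Irf5 were Lcp1, Acsf2 and Il10ra (0.998 to 0.999), and those most like Irf7 were BC043934, Gm13375 and Hgf (0.994 to 0.995). High values are common in 6 libraries, since 365 of 17036 other genes reached 0.95 with Irf4, 496 with Irf5 and 284 with Irf7.

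Marker lists of other cell types are given beside the members, against the same background of 3.72% of genes higher and 2.67% lower. For counts of DESeq2 calls, here and below, the background was 1102 genes higher and 811 lower in KO mice among 17037 tested. Among 12 monocyte genes 10 rose and none fell, with Ccr2, the receptor that brings classical monocytes into tissue, at 31.5 to 39.3 CPM in WT and 57.7 to 72.9 CPM in KO mice, and Cx3cr1, of patrolling monocytes, at 10.1 to 13 and 25.2 to 38.6 CPM. The summed monocyte genes lay at 1722 to 1761 CPM in WT and 1790 to 2131 CPM in KO mice, most of which was Ace, a gene that endothelium also expresses. Without Ace the sums were 245 to 330.8 and 435.8 to 593.1 CPM. Csf1r, the growth factor receptor of these cells, rose from 123.5 to 152.7 CPM in WT mice to 186.3 to 220 CPM in KO mice. The monocyte genes called numbered 4 without WT4, 0 without WT5 or WT6 and 6 without KO6.

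All 10 B cell genes had every KO mouse above every WT mouse, where 17.0% of all genes tested did so. Yet 0 of 10 passed edgeR's test, with 10 of 10 at an unadjusted p under 0.05 and 8 of 10 called by DESeq2. Their summed level was 139.4 to 153.7 CPM in WT mice and 259.3, 1096 and 312 CPM in KO4, KO5 and KO6. The same KO5 library held the highest value of every member except Irf1 and Irf7, so also of Irf3 and Irf9, whose groups overlapped. Ms4a1, which encodes the B cell surface protein CD20, was at 18.4 to 24.3 CPM in WT mice and 41.4, 172.8 and 41.1 CPM in the KO mice. With KO5 left out 8 of the 10 B cell genes passed, as without KO4, and Irf4 (adjusted p = 0.0158 without KO5), Irf5 (0.0142) and Irf7 (0.0229) passed in edgeR's test too.

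Plasma cell genes passed in 0 of 6 by edgeR, with 4 at an unadjusted p under 0.05 and 1 called by DESeq2. Their sum was 323.5 to 523.8 CPM in WT and 497.8 to 941.7 CPM in KO mice. Of this Sdc1 held 237.4 to 244.1 CPM in WT and 183.3 to 248 CPM in KO mice, with a log2 fold change of -0.14 that did not pass. Without Sdc1 the sums were 86.1, 181.1 and 279.7 CPM in WT4, WT5 and WT6 and 388.7, 314.5 and 718.1 CPM in KO4, KO5 and KO6. Most of the rest was Jchain, which links secreted antibodies, at 58.3 to 238.7 and 253.2 to 645 CPM. T cell genes passed in 0 of 10 (8 at an unadjusted p under 0.05, 6 by DESeq2), and their sum was 53.4 to 60.9 CPM in WT mice and 60.9, 163.7 and 86.1 CPM in KO4, KO5 and KO6. Natural killer genes rose in 2 of 8, with sums of 32.8 to 45.5 CPM in WT and 52.9 to 66.5 CPM in KO mice. Neutrophil genes rose in 3 of 8, with sums of 60.5 to 99.4 and 153.8 to 175.4 CPM. With a mouse left out, the neutrophil count was 0 without WT4, WT5 or KO6 and 2 without WT6, and the natural killer count was 0 without WT5, WT6 or KO6 and 1 without WT4 or KO4.

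The dendritic cell lists were mixed. Of 8 genes of type 1 dendritic cells 1 rose (Xcr1, log2 fold change 0.65), and the sum was 755 to 817.9 CPM in WT and 817 to 848.1 CPM in KO mice. Most of that sum was Cd24a and Cadm1, with log2 fold changes of -0.09 and -0.02 that did not pass, so it says little of the other genes. In the type 2 list Itgax and Flt3 rose and Zbtb46 fell among 7 genes, with sums of 144.6 to 180.8 and 182.2 to 192.6 CPM. Plasmacytoid genes passed in 0 of 8 (6 at an unadjusted p under 0.05, 4 by DESeq2), with sums of 255.6 to 266.7 and 300.2 to 405.8 CPM. Most of these sums was Tcf4, at 216.5 to 227.4 CPM in WT and 242.5 to 256.9 CPM in KO mice. The list also holds Spib, a gene of B cells too, at 24.1, 80.3 and 26.2 CPM in KO4, KO5 and KO6. Ly6d was at 16.6, 46.7 and 14.9 CPM in the same mice, and Siglech at 4.2, 5.2 and 5.98 CPM. Cox6a2 was the 1 gene of the list with a negative log2 fold change (-0.33). Alveolar macrophage sums overlapped, at 556.6 to 870.1 and 708.1 to 889 CPM, and 1 of 10 genes rose, the scavenger receptor Marco, with a log2 fold change of 1.26. The calls in the type 1 and type 2 lists were 0 without WT5, WT6 or KO6, and in the type 1 list also without WT4, and that of Marco was lost without WT5. No marker of these leukocyte lists had 0 counts in all mice.

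In the opposite direction, all 4 red cell genes fell, with a sum of 1923 to 2055 CPM in WT and 928.4 to 1278 CPM in KO mice. They were called in 2 of 4 without WT4 and in 0 of 4 without WT5, WT6 or KO6. Hbb-bs, a beta globin, was at 1205 to 1314 CPM in WT mice and 575.6 to 785.6 CPM in KO mice. Epithelial genes did not pass in edgeR (0 of 6, with 2 lower at an unadjusted p under 0.05 and 2 by DESeq2), and their sums of 45790 to 55410 and 35560 to 46730 CPM overlapped. Of 5 endothelial genes Cldn5, a tight junction protein, fell, with a log2 fold change of -0.31, a call lost (0 of 5) whichever mouse was left out. In whole lung, more cells of a type and more RNA per cell cannot be told apart, and the part of these cell types in the IRF values was not tested.

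**Figure D4:**
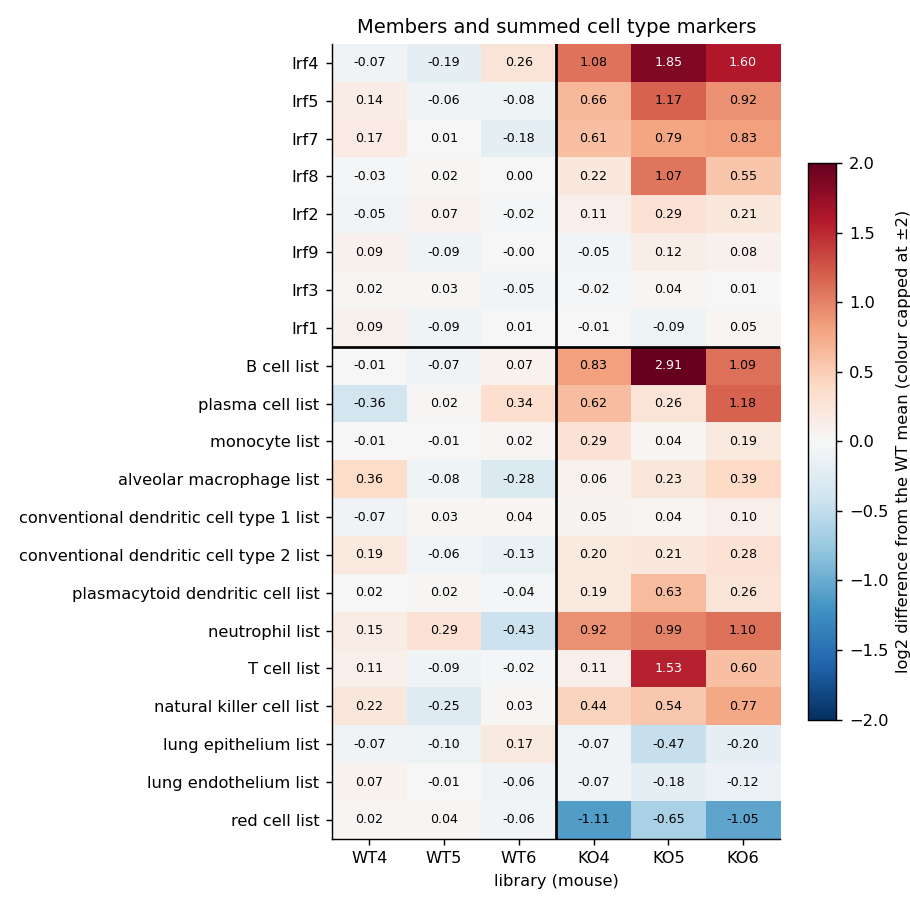
Rows give each member (difference of log2 CPM from the WT mean) and the summed CPM of each marker list (log2 of the sum, less its WT mean), and columns give the 6 libraries. KO5 reads 2.91 for the B cell list and 1.07 for Irf8, and the red cell list is below 0 in all 3 KO mice.

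The other genes of the pathway, 128 symbols in 7 lists of which 119 were tested, held 26 genes with an adjusted p ≤0.05. For this count and those by list below, the share over all genes tested was 6.39%, with 3.72% higher and 2.67% lower. Without a mouse this count was 15 (WT4), 0 (WT5, with 50 at an unadjusted p under 0.05), 2 (WT6), 35 (KO4), 30 (KO5) and 5 (KO6), so the counts by list below rest on the same mice as those of the members.

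Among 10 DNA-binding partners 2 rose and none fell, with a median log2 fold change of 0.40. Spi1, which encodes the PU.1 partner of IRF4 and IRF8, measured 27.4, 24.3 and 24.6 CPM in WT mice and 40.8, 44.3 and 52.1 CPM in KO4, KO5 and KO6, and all KO mice were higher (log2 fold change 0.85, adjusted p = 0.0121). Ikzf1, a lymphoid factor, rose with a log2 fold change of 1.21. Stat2, a subunit of the complex with IRF9, had a log2 fold change of 0.02 (adjusted p = 0.924). Spib, the B cell relative of Spi1, had the largest difference of the list at 1.86 without passing (adjusted p = 0.0628), with 10.5 to 14.4 CPM in WT mice and 24.1, 80.3 and 26.2 CPM in KO4, KO5 and KO6. Batf and Batf3 had log2 fold changes of 0.57 and 0.51 and did not pass.

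Of 25 sensors and kinases upstream, 4 rose and none fell, with a median of 0.19. Of the 4 endosomal receptors in the list 2 rose. Tlr7, a sensor of single-stranded RNA, was at 12.4 to 17.2 CPM in WT and 23.1 to 32.4 CPM in KO mice (log2 fold change 1.02). Tlr9, a sensor of DNA, was at 3.4 to 4.19 CPM in WT mice and 8.12, 24.9 and 10.8 CPM in KO4, KO5 and KO6 (log2 fold change 1.92, adjusted p = 0.0426), again with KO5 far above the others. The other 2, Tlr8 and Tlr3, had log2 fold changes of 0.24 and 0.13 and did not pass (adjusted p of 0.574 and 0.16). Zbp1 and Dhx58, cytosolic sensors that interferon induces, also rose. Both are also among the 9 type I interferon-stimulated genes that rose, given below, and the total of 26 pathway genes counts each of them once. The remaining 19 genes of the list, adaptors and kinases among them, did not pass, with log2 fold changes from -0.07 (Mavs) to 1.13 (Ticam2). Myd88 and Tbk1 were near 0 at 0.004 and 0.05, whereas Ikbke, Tmem173 (the sensor adaptor STING) and Irak4 were at 0.45, 0.50 and 0.30 with every KO mouse above every WT mouse (adjusted p between 0.0576 and 0.112).

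The interferon genes themselves were barely detected. Ifnb1, Ifna1, Ifna2, Ifna5, Ifnl2 and Ifnl3 had 0 counts in all 6 mice, which allows up to 0.148 CPM in the shallowest library, and Ifna4 had 1 count in all. Ifng had 7, 2 and 12 counts in the WT mice and 8, 24 and 12 in KO4, KO5 and KO6, too few to be tested. Of 10 tested receptor and JAK-STAT genes 0 passed in edgeR, with 4 at an unadjusted p under 0.05 and 1 called by DESeq2, all higher. The type I receptor gene Ifnar1 had a log2 fold change of 0.24 (adjusted p = 0.053), and Ifngr1 had 0.04.

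Of 30 type I interferon-stimulated genes, 9 rose and none fell (1 was lower at an unadjusted p under 0.05, Isg20, and 0 by DESeq2), and in 24 of 30 all KO mice were above all WT mice, beside 17.0% of genes tested. The median log2 fold change was 0.30. Oas3, an activator of RNA decay, had the largest rise, from 3.5, 3.64 and 3.66 CPM in WT mice to 8.16, 9.08 and 8.59 CPM in KO4, KO5 and KO6 (log2 fold change 1.26, adjusted p = 0.00665). The KO mice were nearly equal here, without the high KO5 value seen for Irf8. Oasl1 and the antiviral GTPase Mx1 rose with log2 fold changes of 1.03 and 1.02. Isg15, Ifit1 and Rsad2, widely used readouts of interferon, had 0.33, 0.16 and 0.25 and did not pass (adjusted p between 0.16 and 0.541). For Isg15 and Rsad2 every KO mouse lay above every WT mouse, and for Ifit1 the groups overlapped.

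Of 27 tested genes of the interferon-gamma response and antigen presentation, 7 rose and none fell, with a median of 0.52. Tap1, the peptide transporter, and Psmb9, a subunit of the immunoproteasome, had log2 fold changes of 0.74 and 0.65, and Nlrc5, the activator of MHC class I genes, had 0.68. The other 20 did not pass, with log2 fold changes from 0.02 (Gbp4) to 2.04 (Cxcl9). Cxcl9 narrowly missed (adjusted p = 0.0505 in edgeR's test) with every KO mouse above every WT mouse, and the study lists it among its genes changed at ZT10. The symbol Gbp6 stands for 2 rows, of which 1 had 0 counts in all mice.

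Among 13 tested genes that IRF4 or IRF8 act on in leukocytes, 3 rose and 2 fell. Cybb and Ncf1, of the phagocyte oxidase, rose with log2 fold changes of 1.17 and 0.94, as did Csf1r with 0.57. Klf4, which acts downstream of IRF8 in monocytes and is also expressed in endothelium, fell from 248.6, 252 and 250 CPM in WT mice to 139.8, 136.9 and 161 CPM in KO4, KO5 and KO6 (log2 fold change -0.78, adjusted p = 0.00665). Zbtb46, of dendritic cells and endothelium, fell with -0.35. Prdm1, which IRF4 induces in plasma cells, had 0.19 and Xbp1 had -0.14, and neither passed.

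Among 10 co-repressors and brakes 1 rose, Tnfaip3, an inhibitor of NF-kB, with a log2 fold change of 0.69. The IRF2-binding genes Irf2bp1, Irf2bp2 and Irf2bpl had values between -0.15 and -0.01, and Socs1, Socs3 and Usp18, which damp interferon signals, between 0.22 and 0.35, with adjusted p between 0.0886 and 0.96 for these 6 in edgeR's test.

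**Figure D5:**
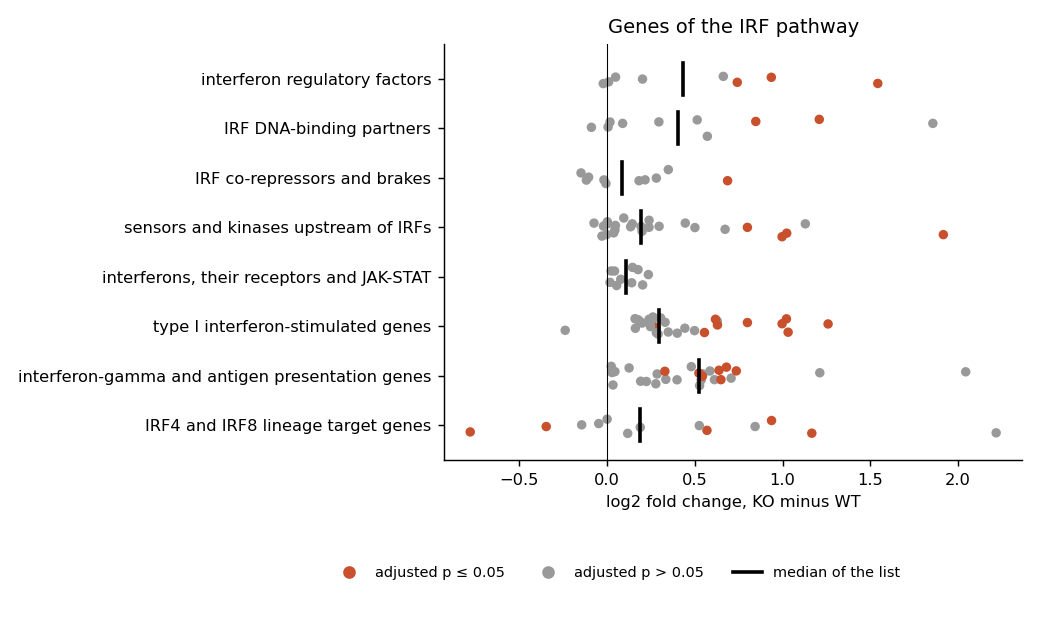
Each point is 1 tested gene of a list, placed by its log2 fold change (KO minus WT) and red where the adjusted p was ≤0.05, with a black bar at the list's median. The red points lie to the right of 0 except for Klf4 and Zbtb46 among the lineage target genes, the list of interferons and receptors has none, and the median is 0.30 for type I interferon-stimulated genes beside 0.43 for the 8 IRF genes.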

How the data were processed

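RNA-seq libraries of lungs from 3 WT and 3 KO mice were prepared with a stranded mRNA kit. Per the labels and the paper's methods, the authors trimmed reads (Trimmomatic 0.36), aligned them to GRCm38 with STAR 2.5.3a and counted reads per Ensembl gene with HTSeq 0.6.0. The deposited values are raw counts without normalization, and the strand setting and annotation release are not given in the sources used here.

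Counts were tested in R 4.3.3 with edgeR 4.0.16 (quasi-likelihood test, TMM scaling, filterByExpr with a minimum count of 10 and a minimum total of 15, Benjamini-Hochberg adjustment over 17037 genes), with all 6 libraries and no covariates. The standard error is the log2 fold change divided by the square root of F, and intervals are 95%. CPM used scaled library sizes, and log2 CPM a prior count of 2. DESeq2 1.42.0 and other scalings, filters and left-out mice were alternatives. Positions and transcript lengths came from GENCODE vM21 (GRCm38), which placed 46488 of 47069 genes, and promoters from RefSeq. Nothing in the labels says that same-numbered mice were paired. Libraries of a group differed by more than sampling noise (chi-square per degree of freedom of 8.78 or more).

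The members and gene lists were chosen with earlier results of these data known. Named were all members, in each pathway list the 3 largest called changes per direction, and the 3 genes most correlated with each called member. In each marker list the 2 most abundant genes and those at 0 were to be named, but many of these are not given. Other genes, among them the markers Ccr2, Cx3cr1, Xcr1, Marco and Cldn5, were named after their values were seen. Some genes were left out of the lists and are not reported here.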

Additional observations from a re-analysis of the deposited data

How the results depend on the processing

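The 3 members called in edgeR (Irf4, Irf5 and Irf7) numbered 3 with DESeq2 size factors, upper-quartile factors or at least 10 counts in every library, and 4 with no filter or in DESeq2, where Irf8 was added with log2 fold changes of 0.65 (adjusted p = 0.0449) and 0.66 (0.00438). With the replicate number as a block 0 of 8 passed, although 5 of 8 had an unadjusted p under 0.05. In that blocked fit Irf4 had a log2 fold change of 1.52, Irf5 of 0.92 and Irf7 of 0.74, with adjusted p between 0.0606 and 0.0729, 66 genes passed over all tested in place of 1089, and 2 of the other pathway genes in place of 26. The labels do not say whether the numbers pair the mice. Deviations from the group mean correlated at -0.032, -0.154 and -0.021 for same-numbered mice and between -0.229 and 0.261 for the other pairs. With 3 mice per group these values cannot decide whether the mice were paired. Over all genes DESeq2 called 1913. With each mouse left out, the members called ranged from 0 to 4, genes called over all tested from 1 to 1278 and other pathway genes from 0 to 35. In the same fits the log2 fold change ranged from 1.35 to 1.72 for Irf4, from 0.79 to 1.05 for Irf5, from 0.65 to 0.83 for Irf7, from 0.39 to 0.84 for Irf8, from -0.0676 to 0.0223 for Irf1 and from -0.0201 to 0.023 for Irf3. Other pathway genes called were 47 in DESeq2 and 37 with no filter. Irf1 changed sign without WT4 (0.0223) and without KO5 (0.0108), and Irf3 without WT6 (-0.0201), without KO5 (-0.0095) and with no filter (-0.0018), values within the error of 0. Members other than Irf1 and Irf3 kept their direction in all alternatives run. With 3 mice per group, the calls of Irf4, Irf5 and Irf7 depend on which mice enter, and the cause was not tested.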
